A study of Homo sapiens with 9 samples.

Results

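The TNF superfamily was followed across a cell model of early mammary transformation: the ligands that bear TNF or TNFSF symbols and the receptors that bind them. Members were the genes of the count table whose symbol has the form TNFSF or TNFRSF with a number and an optional letter, together with TNF, LTA, LTB, LTBR, CD40, CD70, CD27, NGFR, EDA2R and EDAR. This gave 42 genes of the 60199 symbols in the table, of which 15 encode ligands, 7 encode receptors with a death domain, 4 encode decoy or soluble receptors and 16 encode receptors that signal through TRAF adaptors without a death domain. Poly-A RNA was sequenced from 9 libraries, 3 for each of 3 lines. CT was parental MCF10A, a non-transformed human mammary epithelial line that according to the study has lost CDKN2A and gained copies of MYC, kept without added cytokine. MC26 came from unsorted MCF10A cells after long exposure to the bone morphogenetic protein BMP2 and the cytokine IL6. M1B26 came from MCF10A cells sorted for the receptor BMPR1B and exposed to the same 2 factors, after which 3 clones were picked from soft agar and expanded. The medium of both derived lines held BMP2 and IL6, so M1B26 differed from MC26 by sorting and by cloning. The study also describes a shorter time to transformation for the sorted cells, so the length of exposure may differ too, and the effects of sorting, cloning and exposure cannot be told apart. The 3 cultures of each line were described as independent, but how many separate derivations stand behind them is not given in the sources used here, and the p-values below measure the spread between these cultures only.

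TNF superfamily ligands are mostly trimeric membrane proteins, some of them shed into the medium, that cluster receptors on the same or a neighbouring cell. Receptors with a death domain can recruit FADD and caspases or the adaptor TRADD, whereas the others bind TRAF proteins directly, and both routes can activate NF-kB. Decoy receptors bind ligand but lack a complete signalling tail, and epithelial cells of the breast are known for the receptors of TNF, TRAIL (TNFSF10), lymphotoxin and TWEAK (TNFSF12), while RANK (TNFRSF11A) controls growth of the mammary gland.

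These promoter windows are shown because they belong to the member with the largest rise among those at 1 CPM or more, to the member that fell at each step and to a ligand that no test called in any comparison. The sequences are RefSeq windows on GRCh38.p14, 250 bases upstream of an annotated start, written from 5′ to 3′ on the strand of the gene. Capitals mark matches on either strand to a loose NF-kB-type motif (GGGANNNNCC) or a SMAD-type motif (GGCGCC), and STAT-type (TTCNNNGAA) and AP-1-type (TGANTCA) motifs were searched as well. TNFRSF6B lies at chr20:63696402-63696651 on the + strand, TNFRSF21 at chr6:47309906-47310155 on the - strand and TNFSF9 at chr19:6530776-6531025 on the + strand.
TNFRSF6B: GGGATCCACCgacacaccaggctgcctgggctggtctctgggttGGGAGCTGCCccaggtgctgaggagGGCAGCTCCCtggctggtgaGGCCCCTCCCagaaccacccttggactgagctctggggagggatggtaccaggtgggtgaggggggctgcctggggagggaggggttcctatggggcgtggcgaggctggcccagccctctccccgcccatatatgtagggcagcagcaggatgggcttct
TNFRSF21: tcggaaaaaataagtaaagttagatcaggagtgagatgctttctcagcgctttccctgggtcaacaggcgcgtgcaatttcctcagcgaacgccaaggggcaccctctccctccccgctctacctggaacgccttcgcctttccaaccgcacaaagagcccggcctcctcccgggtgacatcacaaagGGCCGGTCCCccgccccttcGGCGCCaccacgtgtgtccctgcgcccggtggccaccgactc
TNFSF9: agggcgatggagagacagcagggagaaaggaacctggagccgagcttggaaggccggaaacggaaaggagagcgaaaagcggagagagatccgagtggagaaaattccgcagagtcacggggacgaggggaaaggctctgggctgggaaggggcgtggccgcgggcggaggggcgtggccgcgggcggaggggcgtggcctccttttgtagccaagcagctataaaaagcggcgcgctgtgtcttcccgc
The TNFRSF6B window holds 4 NF-kB-type matches, which start at bases 1 and 45 on the strand shown and at bases 70 and 90 on the opposite strand. An NF-kB-type match was present in 22.6% of the 35116 RefSeq windows of this length, and 0.13% of them (45 windows) held at least 4. The cut at 4 was set from the TNFRSF6B window itself, which was shown because of that gene's rise. The 0.13% is therefore not a test of how unusual this window is. The TNFRSF21 window holds 1 NF-kB-type match, which starts at base 189 on the opposite strand, and 1 SMAD-type match at base 209, a motif present in 16.4% of all windows. The TNFSF9 window holds none of the 4 motifs. The TNFRSF6B window is also exonic in the read-through gene RTEL1-TNFRSF6B. Windows were found for 27 of the 42 members (35 windows), and 12 of these 35 (34.3%) held an NF-kB-type match. A match is a description of the letters only. The NF-kB-type pattern leaves its middle bases free, so a match does not identify an NF-kB site, and binding was not measured.

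Library totals ran from 21425118 to 80076597 counts, and CT replicate 2 was the shallowest. Levels are given as counts per 1000000 (CPM) scaled by trimmed mean of M-values (TMM) factors, and 3 counts in a library, taken as the limit of what a count of 0 allows, corresponded to 0.0366 to 0.131 CPM. All 8 mammary epithelial markers had over 3 counts in every library, with a summed level of 6640 to 9555 CPM. KRT5 carried most of this sum (means of 6583, 6262 and 4922 CPM in CT, MC26 and M1B26), and single markers moved apart. On the log2 scale, KRT14 (4.34) and TP63 (1.29) rose and EPCAM (-2.25), CDH1 (-0.91) and KRT18 (-0.29) fell in MC26 against CT. In M1B26 against CT, KRT14 (3.33) and TP63 (1.31) rose and CDH1 (-0.79), EGFR (-0.48) and KRT5 (-0.42) fell. The other markers were not called. Of 7 leukocyte markers, CD3E and MS4A1 had no count in any library, PTPRC had at most 2 counts and LYZ at most 4, and the list, carried by CD14 and CD68, which epithelial cells can also express, summed to 14.8 to 19.9 CPM in CT, 34.4 to 36.7 CPM in MC26 and 56.8 to 78.9 CPM in M1B26. Fibroblast markers summed to 17.1 to 56.5 CPM over all libraries, and endothelial markers to 4.85 to 5.31 CPM in CT, 0.0994 to 0.541 CPM in MC26 and 0.497 to 1.74 CPM in M1B26. The fibroblast sum was carried by DCN and COL1A1, with DCN at 5.44 to 47.3 CPM over the MC26 libraries. The endothelial sum was nearly all PECAM1, since VWF had at most 3 counts and CDH5 at most 1 in a library. In bulk RNA, fewer expressing cells and less RNA per cell cannot be told apart.

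Of the 42 members, 28 passed the filter on low counts and were tested, comprising 10 ligands, 6 death domain receptors, all 4 decoy or soluble receptors and 8 TRAF-signalling receptors. A gene was called at an adjusted p under 0.05 in edgeR's quasi-likelihood test, with p-values adjusted by Benjamini and Hochberg over all 15717 genes tested. In MC26 against CT, 8 members were higher and 4 lower, and 16 were not called. The 12 calls made up 42.9% of those tested, beside 38.7% of all genes called in that comparison (18.8% higher and 19.9% lower). In M1B26 against CT, 12 members were higher and 4 lower (57.1% of those tested), beside 48.9% of all genes (25.2% higher and 23.7% lower). Between the derived lines, M1B26 against MC26, 9 members were higher and 5 lower, with 14 not called, beside 39.5% of all genes called (21.2% higher and 18.4% lower). Members called higher were 28.6%, 42.9% and 32.1% of those tested in these 3 comparisons, each above the share of all genes, and members called lower were 14.3%, 14.3% and 17.9%, each below it. Whether these shares differ from those of all genes was not tested. TNFRSF9 and TNFSF18, with at most 3 counts in every CT library, passed the filter through the derived lines only. Against CT they could be called higher but not lower, and both are counted as higher. CD40, with at most 3 counts in every M1B26 library, passed through CT and MC26 only and could be called lower but not higher in M1B26. With total counts in place of TMM the split over all genes became 2169 higher and 3898 lower in MC26 against CT and 3094 higher and 4729 lower in M1B26 against CT, while the members' splits were 8 and 4, and 12 and 5. The 3 comparisons are not independent, since both derived lines were set against the same CT libraries.

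On the log2 scale, the median change of the 28 members was -0.03 in MC26 against CT, 0.30 in M1B26 against CT and 0.06 in M1B26 against MC26, beside 0.00 for all genes in each. The median absolute change was 0.48, 0.60 and 0.54 in the same order, beside 0.25, 0.32 and 0.27 for all genes. The 9 members called in the same direction in both derived lines against CT were TNFRSF6B, TNFRSF12A, TNFRSF25, LTBR, TNFRSF10A, TNFRSF1A, TNFRSF9 and TNFSF18, which rose, and TNFRSF21, which fell. The share of all genes called in the same direction in both was not computed, so whether 9 is many cannot be said. Among the 9, the direction of TNFRSF9 and TNFSF18 was fixed by the filter. In no comparison were EDA2R, TNFRSF10B, TNFRSF10D, TNFRSF11B, TNFRSF14, TNFSF13B, TNFSF4 or TNFSF9 called.

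**Figure D1:**
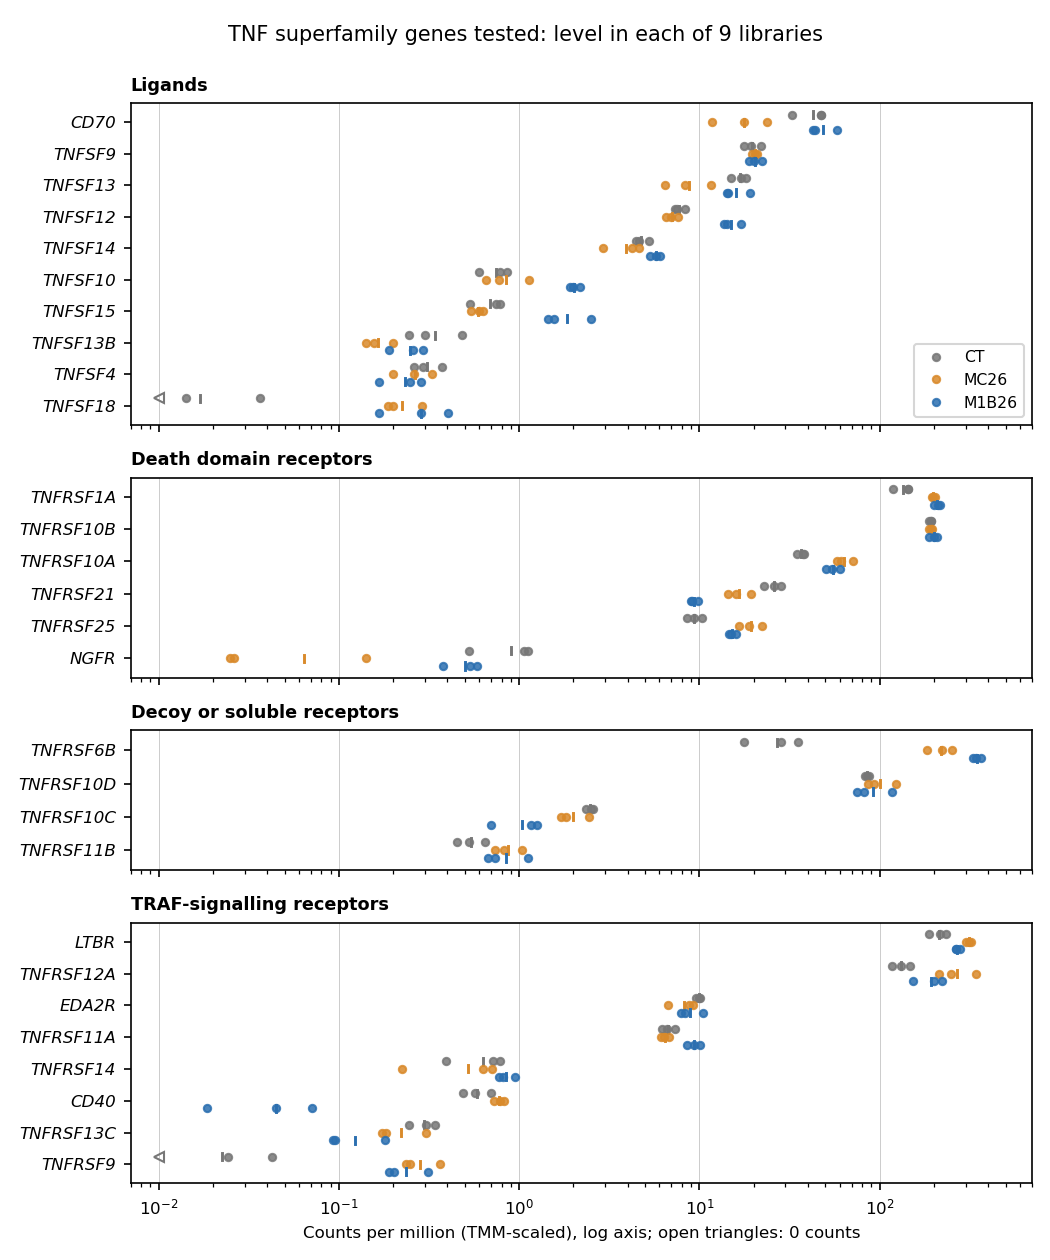
Level of each of the 28 members tested (CPM with TMM scaling, log axis) in the 3 CT, 3 MC26 and 3 M1B26 libraries, ordered by role; points are libraries, short vertical bars are means over 3 libraries and open triangles at the left edge are libraries with 0 counts. TNFRSF6B separates into 3 groups of libraries, from 17.7 to 35.1 CPM in CT to 331 to 365 CPM in M1B26, whereas the points of TNFRSF10B and TNFSF9 lie on top of each other.

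**Figure D2:**
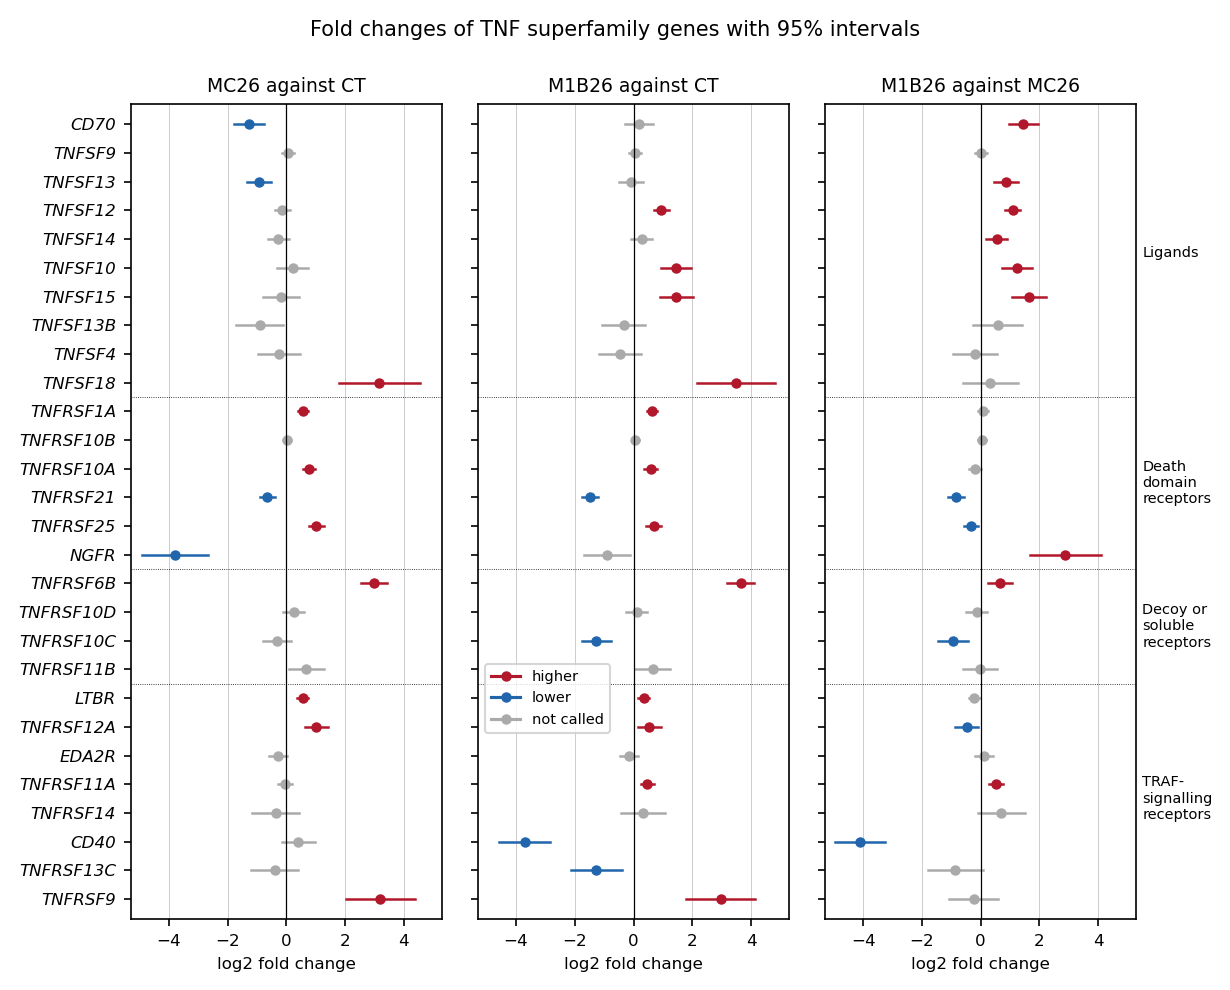
Log2 fold change of each of the 28 members tested in the 3 comparisons, with 95% intervals as lines; red points were called higher, blue points lower and grey points were not called. TNFRSF6B lies at 2.99 and 3.65 against CT, and 6 of the 10 ligands are red in M1B26 against MC26, where none is blue.

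Levels of different genes were compared per kilobase of exon. Summed over all 27 receptors, the level reached 253 ± 24.3 CPM per kb in CT (mean ± SD, n = 3) and went to 541 ± 12.3 in MC26 and to 599 ± 13.0 in M1B26. The libraries of CT ranged from 227 to 275 and did not overlap those of MC26 (528 to 552) or M1B26 (589 to 614). TNFRSF6B made up 9.24 ± 2.21% of that sum in CT, 35.5 ± 5.93% in MC26 and 50.7 ± 3.55% in M1B26. Without it the receptors summed to 229.7 ± 16.6, 349 ± 37.2 and 296 ± 27.6 CPM per kb in CT, MC26 and M1B26, again with CT below both derived lines. Most of this remainder came from TNFRSF12A, LTBR, TNFRSF1A and TNFRSF10B, which together held 77.4 ± 1.11%, 81.4 ± 2.44% and 81.2 ± 1.37% of it. The highest receptor in CT was thus TNFRSF12A (73.2 ± 8.76 CPM per kb), followed by TNFRSF10B (38.0 ± 0.436), LTBR (34.5 ± 3.81) and TNFRSF1A (32.1 ± 3.36). TNFRSF10B overlapped LTBR, and LTBR overlapped TNFRSF1A, between libraries. In MC26 and M1B26, TNFRSF6B ranked first (192 ± 30.5 and 304 ± 15.1 CPM per kb), with TNFRSF12A second. These 2 overlapped between libraries in MC26 but not in M1B26. The sums, shares and ranks depend on the exon length used, which joins the exons of all annotated transcripts of a gene. By mean CPM without length scaling, the highest receptor was LTBR in CT (212) and MC26 (312) and TNFRSF6B in M1B26 (346).

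The ligands summed to lower levels than the receptors in every line. CT libraries held 50.4 ± 7.27 CPM per kb of ligand, MC26 libraries 30.8 ± 4.92 and M1B26 libraries 56.8 ± 8.13, and every MC26 library lay below every library of the other lines. CD70, TNFSF9, TNFSF13 and TNFSF12 supplied 96.9 ± 0.798%, 95.4 ± 0.383% and 95.7 ± 0.633% of the ligand sum in CT, MC26 and M1B26. CD70 alone held 54.8 ± 3.51% in CT and 55.5 ± 1.95% in M1B26, but 36.8 ± 6.82% in MC26. TNFSF9 took the first place in MC26 by its mean, with 41.2 ± 7.96%, although its share and that of CD70 overlapped between libraries.

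**Figure D3:**
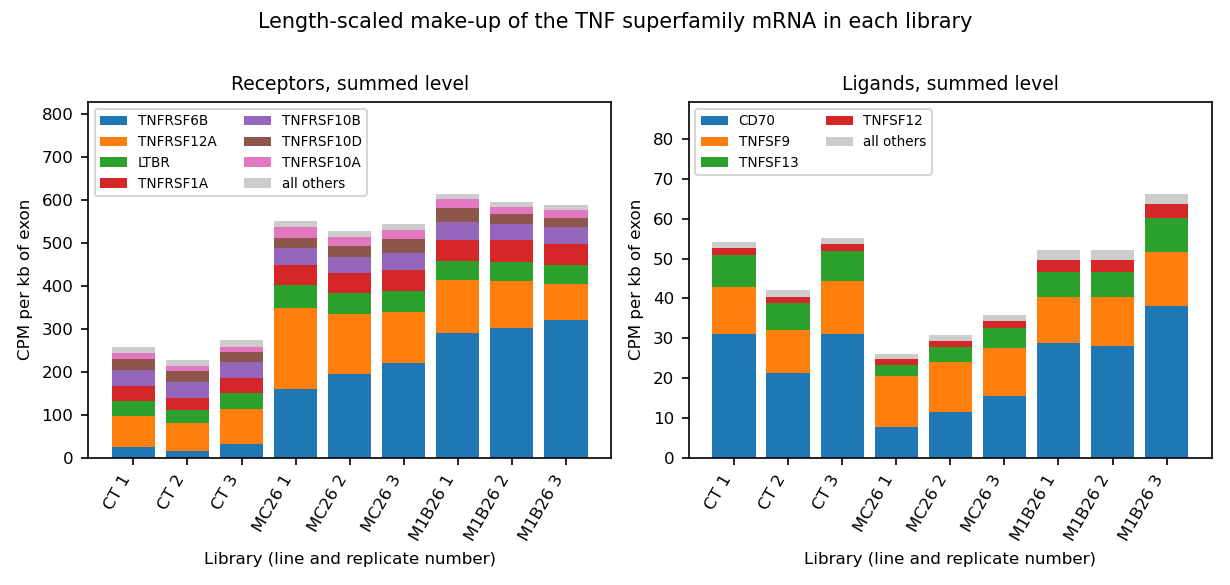
Summed level of the 27 receptors (left) and the 15 ligands (right) in each of the 9 libraries, in CPM per kb of exon, with the leading genes as coloured segments of each bar and all others in grey. The TNFRSF6B segment grows from 6.85 to 11.2% of the receptor bar in CT to 47.2 to 54.3% in M1B26, and the CD70 segment is shortest in the MC26 libraries.

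TNFRSF6B (ENSG00000243509.6, chr20:63696652-63698684, + strand), the secreted decoy that binds FASLG, TNFSF14 and TNFSF15, showed the largest rise of any member at over 1 CPM. Its levels were 28.4, 17.7 and 35.1 CPM in CT, 182, 223 and 252 CPM in MC26 and 331, 344 and 365 CPM in M1B26. Each of the 3 lines occupied its own range, with CT lowest and M1B26 highest. The log2 fold change was 2.99 ± 0.20 (SE) in MC26 against CT (adjusted p = 2.14e-06, 7.96-fold) and 3.65 ± 0.21 in M1B26 against CT (adjusted p = 4.78e-07, 12.6-fold). Between the derived lines it was 0.66 ± 0.19 with adjusted p = 0.0168, and this call was lost without MC26 replicate 1 (0.55, adjusted p = 0.0617), MC26 replicate 2 (0.67, adjusted p = 0.0508) or M1B26 replicate 3 (0.62, adjusted p = 0.0505). The gene shares exons with the read-through gene RTEL1-TNFRSF6B on the same strand and overlaps ARFRP1 on the opposite strand, and the counting of such reads is not stated. RTEL1-TNFRSF6B rose by less (1.14 ± 0.12 and 1.07 ± 0.12 in MC26 and M1B26 against CT), ARFRP1 was not called against CT (0.09 and -0.20), and the ratio of TNFRSF6B counts to read-through counts was 3.33 ± 0.517 for CT, 12.3 ± 2.30 for MC26 and 20.4 ± 2.46 for M1B26. Of 19 other tested genes within 250 kb, 7 were higher and 3 lower in MC26 against CT, beside 18.8% and 19.9% of all genes. In M1B26 against CT, 4 were higher and 1 lower, beside 25.2% and 23.7% of all genes. The median of these neighbours was 0.13 in both comparisons, and the window also covers RTEL1-TNFRSF6B. STMN3, the neighbour that changed most upward, rose by 2.66 and 3.60 in the same comparisons.

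The remaining decoy or soluble receptors did not share that rise. TNFRSF10C (chr8:23102921-23117445, + strand), which binds TRAIL but lacks a cytoplasmic death domain, was measured at 2.51, 2.36 and 2.56 CPM in CT, 1.81, 1.70 and 2.45 CPM in MC26 and 1.26, 1.16 and 0.702 CPM in M1B26. M1B26 lay below both other lines in every library, while MC26 and CT touched. It fell in M1B26 against CT (-1.27 ± 0.23 with adjusted p = 9.48e-04) and against MC26 (-0.95 ± 0.23 with adjusted p = 0.00825), and its value in MC26 against CT was -0.32 ± 0.22 with adjusted p = 0.267. TNFRSF10D, a TRAIL receptor with a truncated death domain, stood at 87.4, 85.1 and 82.5 CPM in CT, 85.9, 92.7 and 123 CPM in MC26 and 117, 82.0 and 75.2 CPM in M1B26, all 3 lines overlapping. TNFRSF11B (osteoprotegerin), the soluble decoy for RANK ligand and TRAIL, was low at 0.643, 0.524 and 0.451 CPM in CT, 0.820, 0.732 and 1.03 CPM in MC26 and 0.676, 0.733 and 1.13 CPM in M1B26. Every derived library was above every CT library, but neither comparison passed the test (0.68 ± 0.27 with adjusted p = 0.0714 in MC26 and 0.66 ± 0.27 with adjusted p = 0.0636 in M1B26). Without M1B26 replicate 1 the second value became 0.80 with an adjusted p of 0.049982.

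The signalling receptors of TRAIL differed from each other. TNFRSF10A (ENSG00000104689.10, chr8:23190452-23225102, - strand) was measured at 38.1, 34.7 and 37.7 CPM in CT, 71.4, 61.0 and 58.2 CPM in MC26 and 60.5, 50.3 and 54.6 CPM in M1B26. All derived libraries exceeded all CT libraries, and those of MC26 and M1B26 overlapped. It rose in MC26 (0.78 ± 0.09 with adjusted p = 9.64e-05) and in M1B26 (0.58 ± 0.09 with adjusted p = 4.78e-04) against CT, and the value between the derived lines was -0.20 ± 0.09 with adjusted p = 0.101. TNFRSF10B (ENSG00000120889.13, chr8:23020133-23069031, - strand), the second death receptor for TRAIL, was measured at 192, 192 and 188 CPM in CT, 192, 188 and 196 CPM in MC26 and 209, 188 and 201 CPM in M1B26. Its libraries overlapped in every comparison and the log2 changes were 0.01 ± 0.06 and 0.06 ± 0.06 against CT, with 95% intervals of -0.12 to 0.14 and -0.07 to 0.20. TRAIL itself, TNFSF10 (ENSG00000121858.11, chr3:172505508-172523475, - strand), was scarce, at 0.857, 0.786 and 0.598 CPM in CT, 0.771, 0.653 and 1.13 CPM in MC26 and 1.98, 1.92 and 2.18 CPM in M1B26. M1B26 stood above both other lines in every library, and MC26 overlapped CT. The ligand rose in M1B26 against CT (1.45 ± 0.23 with adjusted p = 4.12e-04) and against MC26 (1.24 ± 0.23 with adjusted p = 0.00174). In MC26 against CT its value was 0.21 ± 0.25 with adjusted p = 0.532. The ratio of decoy (TNFRSF10C and TNFRSF10D) to death receptors (TNFRSF10A and TNFRSF10B), both per kilobase, reached 0.507 ± 0.00965 for CT libraries, 0.497 ± 0.108 for those of MC26 and 0.450 ± 0.0868 for those of M1B26, and the ranges of the lines overlapped. The genes for the 4 TRAIL receptors lie side by side on chromosome 8. TNFRSF10B overlaps RHOBTB2 on the opposite strand, which moved by -0.39 in MC26 and 0.44 in M1B26 against CT.

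TNF, the founding cytokine of the family, was at the limit of detection. Its libraries held 1, 0 and 1 counts in CT, 1, 1 and 0 in MC26 and 3, 0 and 1 in M1B26, which is at or under 3 counts in every library. TNFRSF1B, the TNF receptor without a death domain, had at most 4 counts in a library (3, 2 and 3 counts in CT, 1, 2 and 0 in MC26 and 0, 4 and 0 in M1B26). Differences in these 2 genes were therefore not detectable at this depth. TNFRSF1A (ENSG00000067182.9, chr12:6328757-6342114, - strand), the death domain receptor of TNF, was in contrast abundant at 143, 119 and 143 CPM in CT, 203, 195 and 199 CPM in MC26 and 201, 216 and 211 CPM in M1B26. CT was lowest in every library and the libraries of the derived lines overlapped, with MC26 at 195 to 203 CPM and M1B26 at 201 to 216 CPM. It rose in MC26 (0.56 ± 0.08 with adjusted p = 2.91e-04) and M1B26 (0.63 ± 0.08 with adjusted p = 8.02e-05) against CT, by 1.47-fold and 1.55-fold, and did not pass the test between the derived lines (0.07 ± 0.08 with adjusted p = 0.481).

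The other death domain receptors moved in different directions. TNFRSF21 (ENSG00000146072.6, chr6:47231532-47309905, - strand), a death domain receptor also known as DR6, was measured at 26.04, 22.8 and 28.5 CPM in CT, 19.3, 16.0 and 14.4 CPM in MC26 and 9.83, 9.11 and 8.97 CPM in M1B26. The 3 lines did not overlap, with CT highest and M1B26 lowest. It fell in MC26 against CT (-0.64 ± 0.12 with adjusted p = 0.00149), in M1B26 against CT (-1.48 ± 0.12 with adjusted p = 4.44e-06) and in M1B26 against MC26 (-0.83 ± 0.12 with adjusted p = 4.16e-04), and was the only member lower at every step. TNFRSF25 (ENSG00000215788.11, chr1:6460786-6466175, - strand), the receptor of TNFSF15, had 10.3, 8.51 and 9.34 CPM in CT, 22.1, 19.0 and 16.6 CPM in MC26 and 15.0, 16.0 and 14.7 CPM in M1B26. CT was lowest in every library and MC26 highest. It rose in MC26 (1.02 ± 0.11 with adjusted p = 5.80e-05) and in M1B26 (0.69 ± 0.11 with adjusted p = 5.70e-04) against CT and was lower in M1B26 than in MC26 (-0.34 ± 0.11 with adjusted p = 0.0332), a call lost on leaving out MC26 replicate 1 (-0.22, adjusted p = 0.135), MC26 replicate 2 (-0.35, adjusted p = 0.0762) or any of the 3 M1B26 libraries (-0.31 to -0.37, adjusted p = 0.0570 to 0.0957). Its model overlaps ESPN on the opposite strand, whose counts fell from 99, 13 and 136 in CT to between 0 and 10 in the derived lines. NGFR (ENSG00000064300.9, chr17:49495293-49515008, + strand), the low-affinity neurotrophin receptor, had few counts (78, 12 and 87 counts in CT, 1, 1 and 6 in MC26 and 26, 16 and 29 in M1B26). These correspond to 1.11, 0.524 and 1.06 CPM in CT, 0.0249, 0.0261 and 0.141 CPM in MC26 and 0.586, 0.379 and 0.535 CPM in M1B26. MC26 fell below every library of the other lines (-3.79 ± 0.51 with adjusted p = 2.11e-04 against CT), and M1B26 was higher than MC26 (2.88 ± 0.55 with adjusted p = 0.00206). In M1B26 against CT the value was -0.91 ± 0.36 with adjusted p = 0.0537, which passed the test without CT replicate 2 (-1.12, adjusted p = 0.0230), MC26 replicate 1 (-0.91, adjusted p = 0.0483) or MC26 replicate 3 (-0.92, adjusted p = 0.0238). EDAR, the ectodysplasin receptor, had at most 6 counts and was not tested.

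Among the TRAF-signalling receptors, LTBR and TNFRSF12A were the most abundant and rose in both derived lines. LTBR (ENSG00000111321.11, chr12:6375045-6391571, + strand), the lymphotoxin beta receptor that can activate the non-canonical NF-kB route, was measured at 217, 187 and 233 CPM in CT, 322, 301 and 313 CPM in MC26 and 279, 264 and 265 CPM in M1B26. CT was lowest, MC26 highest, and no libraries of different lines overlapped. The log2 fold change was 0.55 ± 0.08 with adjusted p = 3.59e-04 in MC26 and 0.34 ± 0.08 with adjusted p = 0.00487 in M1B26 against CT. In M1B26 against MC26 it was -0.21 ± 0.08 with adjusted p = 0.0544, which passed the test without CT replicate 2 (-0.22, adjusted p = 0.00878) or CT replicate 3 (-0.22, adjusted p = 0.0342). The opposite-strand neighbour SCNN1A, which overlaps LTBR, gave -0.13 (not called) and -0.34 (called) against CT.

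TNFRSF12A (ENSG00000006327.14, chr16:3018445-3022383, + strand), the receptor of TNFSF12, was measured at 131, 117 and 148 CPM in CT, 341, 249 and 212 CPM in MC26 and 223, 201 and 153 CPM in M1B26. Every derived library was above every CT library, MC26 replicate 1 was the highest of all, and MC26 and M1B26 overlapped. It rose in MC26 against CT (1.02 ± 0.18 with adjusted p = 0.00111) and in M1B26 against CT (0.54 ± 0.18 with adjusted p = 0.0243). The second call was lost without CT replicate 1 (0.53, adjusted p = 0.0670), CT replicate 2 (0.46, adjusted p = 0.0873), M1B26 replicate 1 (0.43, adjusted p = 0.102) or M1B26 replicate 2 (0.52, adjusted p = 0.0721). Between the derived lines the value was -0.48 ± 0.17 with adjusted p = 0.0498. This was lost without CT replicate 1 (-0.48, adjusted p = 0.0639), MC26 replicate 1 (-0.26, adjusted p = 0.215), MC26 replicate 2 (-0.53, adjusted p = 0.0783), M1B26 replicate 2 (-0.51, adjusted p = 0.0981) or M1B26 replicate 3 (-0.33, adjusted p = 0.172).

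CD40 (ENSG00000101017.15, chr20:46118271-46129863, + strand), the receptor through which T cells license antigen-presenting and epithelial cells, was low in CT and MC26 and near 0 in M1B26. Its libraries held 34, 13 and 57 counts in CT, 33, 30 and 31 in MC26 and 2, 3 and 1 in M1B26, or 0.486, 0.568 and 0.695 CPM in CT, 0.820, 0.784 and 0.729 CPM in MC26 and 0.0451, 0.0710 and 0.0185 CPM in M1B26. The libraries of M1B26 lay below all others, and those of CT and MC26 did not overlap each other. CD40 fell in M1B26 against CT (-3.70 ± 0.39 with adjusted p = 2.77e-05) and against MC26 (-4.10 ± 0.39 with adjusted p = 2.68e-05), while MC26 against CT gave 0.40 ± 0.26 with adjusted p = 0.238. All M1B26 counts were at or under 3 in a library, so the size of the fall depends on the small value added to low counts. Its ligand CD40LG had no count in any library.

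The other tested TRAF-signalling receptors were lower in level. TNFRSF11A (RANK) was higher in M1B26 than in CT (0.47 ± 0.11 with adjusted p = 0.00371) and MC26 (0.54 ± 0.11 with adjusted p = 0.00277), from group means of 6.70 ± 0.541, 6.43 ± 0.324 and 9.31 ± 0.821 CPM (± SD, n = 3). TNFRSF9, the costimulatory receptor of TNFSF9, had 3, 0 and 2 counts in CT, 10, 14 and 10 in MC26 and 9, 8 and 17 in M1B26, and was called higher in both derived lines against CT (3.20 ± 0.53 with adjusted p = 8.50e-04 and 2.97 ± 0.53 with adjusted p = 9.57e-04), with CT at or under 3 counts in every library. TNFRSF13C, the receptor of TNFSF13B, was lower in M1B26 than in CT (-1.26 ± 0.39 with adjusted p = 0.0198) at 4 to 24 counts a library in these lines. EDA2R and TNFRSF14 were not called, with absolute log2 changes of at most 0.27 and 0.69. The remaining 8 TRAF-signalling receptors were not tested, and CD27, TNFRSF13B, TNFRSF17 and TNFRSF18 had no count in any library, whereas TNFRSF19 reached 9 counts in MC26 and at most 3 in the other lines.

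Of the 10 ligands tested, 6 were higher in M1B26 than in MC26 and none lower, with a median log2 change of 0.72, where 21.2% of all genes were higher and 18.4% lower. TNFSF12 and TNFSF13 are among the 6 and lie on chromosome 17, where 67.0% of tested genes were higher. Of the other members, 3 of 6 death domain receptors, 2 of 4 decoy or soluble receptors and 3 of 8 TRAF-signalling receptors were called in that comparison. The same 10 ligands had 1 higher and 2 lower in MC26 against CT (18.8% and 19.9% of all genes) and 4 higher and none lower in M1B26 against CT (25.2% and 23.7% of all genes). TNFSF18, whose direction against CT was fixed by the filter, is counted as higher in both. CD70 (ENSG00000125726.11, chr19:6583183-6604103, - strand), the ligand of CD27, was measured at 47.5, 32.7 and 47.4 CPM in CT, 11.8, 17.6 and 23.7 CPM in MC26 and 43.99, 42.8 and 58.3 CPM in M1B26. All MC26 libraries lay below those of the other lines, and CT and M1B26 overlapped. It fell in MC26 against CT (-1.28 ± 0.23 with adjusted p = 0.00136, a 2.42-fold decrease) and was higher in M1B26 than in MC26 (1.45 ± 0.23 with adjusted p = 6.87e-04). In M1B26 against CT it gave 0.18 ± 0.22 with adjusted p = 0.533 (95% interval -0.31 to 0.66). TNFSF13 (APRIL), which acts on B-lineage receptors, followed the same course, with group means of 16.8 ± 1.62, 8.78 ± 2.57 and 15.9 ± 2.82 CPM. It fell in MC26 (-0.94 ± 0.19 with adjusted p = 0.00283) and was higher in M1B26 than in MC26 (0.86 ± 0.19 with adjusted p = 0.00470). MC26 replicate 1 had the lowest value of CD70, TNFSF13 and TNFSF14 among the MC26 libraries.

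TNFSF12 (ENSG00000239697.12, chr17:7548508-7557890, + strand), the ligand of TNFRSF12A known as TWEAK, was measured at 7.56, 7.29 and 8.33 CPM in CT, 6.54, 6.98 and 7.64 CPM in MC26 and 13.7, 14.2 and 17.1 CPM in M1B26. M1B26 was above both other lines in every library, and CT and MC26 overlapped. It rose in M1B26 against CT (0.95 ± 0.11 with adjusted p = 5.46e-05) and MC26 (1.09 ± 0.11 with adjusted p = 4.93e-05). Its value in MC26 against CT was -0.14 ± 0.11 with adjusted p = 0.371. TNFSF12 and TNFSF13 are neighbours on chromosome 17 and share the read-through gene TNFSF12-TNFSF13, which had 5 to 41 counts a library. The median of the 843 genes tested on that chromosome was 0.48 in M1B26 against CT and 0.48 against MC26, and 64.4% and 67.0% of them passed the test upward. NGFR is on the same chromosome. Of 28 other tested genes within 250 kb of TNFSF13, 16 were higher and 1 lower in M1B26 against CT. Against CT, TNFSF12 exceeded the chromosome's median and TNFSF13 (-0.08) and NGFR (-0.91) lay below it. Against MC26, TNFSF12 (1.09), TNFSF13 (0.86) and NGFR (2.88) lay above it. The part of this chromosome-wide shift in the M1B26 values of TNFSF12, TNFSF13 and NGFR was not tested.

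TNFSF15 (ENSG00000181634.8, chr9:114784652-114806039, - strand), the ligand of TNFRSF25 and TNFRSF6B known as TL1A, was scarce, at 0.743, 0.786 and 0.537 CPM in CT, 0.597, 0.627 and 0.541 CPM in MC26 and 1.44, 1.56 and 2.49 CPM in M1B26. All M1B26 libraries exceeded those of CT and MC26, which overlapped. It rose in M1B26 against CT (1.45 ± 0.26 with adjusted p = 8.23e-04) and MC26 (1.64 ± 0.26 with adjusted p = 7.64e-04), while MC26 against CT gave -0.19 ± 0.28 with adjusted p = 0.626. TNFSF14 (LIGHT), a ligand of LTBR and TNFRSF14, was higher in M1B26 than in MC26 (0.54 ± 0.16 with adjusted p = 0.0219), and its values against CT were -0.27 ± 0.16 and 0.27 ± 0.16, neither called. TNFSF18, the ligand of TNFRSF18, had 1, 0 and 3 counts in CT, 8, 11 and 8 in MC26 and 18, 12 and 9 in M1B26 and was called higher in both derived lines (3.17 ± 0.63 with adjusted p = 0.00259 and 3.49 ± 0.60 with adjusted p = 7.01e-04), again from CT libraries at or under 3 counts. TNFSF9, the ligand of TNFRSF9, was the most even of the abundant ligands, at 19.4, 17.6 and 21.9 CPM in CT, 20.9, 20.4 and 19.6 CPM in MC26 and 19.0, 20.2 and 22.1 CPM in M1B26, with 95% intervals of -0.16 to 0.25 in MC26 and -0.15 to 0.26 in M1B26 against CT. TNFSF4 and TNFSF13B were not called in any comparison. Of the untested ligands, LTB had at most 12 counts, TNFSF11 (RANK ligand) at most 3 and LTA at most 1, and TNFSF8 had none.

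Set side by side, some ligands were measured together with their receptor and others were not. Both partners had a mean above 1 CPM in at least 1 line for TNFSF12 with TNFRSF12A and for TNFSF14 with LTBR and with TNFRSF6B. The same held for TNFSF15 with TNFRSF25 and with TNFRSF6B, and for TNFSF10 with TNFRSF10A, TNFRSF10B, TNFRSF10C and TNFRSF10D. EDA, a superfamily gene under another symbol, and EDA2R both had means above 1 CPM in every line. The means of TNFSF15 and TNFSF10 were above 1 CPM in M1B26 only. CD70 was the leading ligand in CT and M1B26, but its receptor CD27 had 0 counts in all 9 libraries, which allows up to 0.131 CPM in the shallowest library. TNFSF9 was at 17.6 to 22.1 CPM in every library, and its receptor TNFRSF9 reached 17 counts at most. TNFRSF1A was at 119 CPM or more in every library without measurable TNF, and TNFRSF11A was present at 6.12 to 10.1 CPM with at most 3 counts of its ligand TNFSF11.

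Downstream, 57 genes of TNF receptor signalling were grouped into 5 lists, and 53 of them were tested. In MC26 against CT, 27 were higher and 7 lower (64.2% called, beside 38.7% of all genes), and in M1B26 against CT 25 were higher and 8 lower (62.3% beside 48.9%). With total counts in place of TMM the second split was 19 and 10. In M1B26 against MC26, 16 were higher and 11 lower (50.9% beside 39.5%). The median log2 changes of the 53 genes were 0.29, 0.17 and 0.00.

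The listed genes that TNF is known to induce had the largest median of the 5 lists in each comparison. Of 11 tested, 7 were higher and 2 lower in MC26 against CT, 9 were higher and 2 lower in M1B26 against CT, and 6 were higher and none lower in M1B26 against MC26, with medians of 0.77, 1.22 and 0.54. Of all genes, 18.8%, 25.2% and 21.2% were higher and 19.9%, 23.7% and 18.4% lower in these comparisons. These genes also respond to other signals. The lists were chosen with earlier results of these data known. Each gene was placed in a single list, with TNFAIP3 and BIRC3 in the TRAF and ubiquitin list. IL1B, the inflammatory cytokine interleukin 1 beta, was measured at 15.5, 14.3 and 13.7 CPM in CT, 94.7, 115 and 75.2 CPM in MC26 and 247, 202 and 305 CPM in M1B26. The lines did not overlap, and IL1B rose at each step (2.71 in MC26 against CT, 4.12 ± 0.18 with adjusted p = 1.06e-07 in M1B26 against CT and 1.41 ± 0.16 with adjusted p = 1.01e-04 in M1B26 against MC26). The neutrophil chemokine CXCL8 was measured at 3.93, 4.67 and 3.88 CPM in CT, 5.05, 7.398 and 8.44 CPM in MC26 and 21.7, 24.6 and 25.99 CPM in M1B26, the highest 3 values being those of M1B26. CXCL8 rose in all comparisons (0.77, 2.56 and 1.79), as did CCL20, a chemokine for immature dendritic cells (1.45, 2.62 and 1.17). The adhesion molecule ICAM1 was higher in both derived lines (0.92 and 1.22) and gave 0.30 ± 0.12 with adjusted p = 0.0701 in M1B26 against MC26, which passed the test without MC26 replicate 3 (0.38, adjusted p = 0.0411) or M1B26 replicate 2 (0.41, adjusted p = 0.0331). RELB, a subunit of non-canonical NF-kB, rose by 1.06 and 1.06 against CT, with 0.01 between the derived lines. TNFAIP2 went the other way, at 123, 109 and 126 CPM in CT, 25.1, 39.6 and 37.8 CPM in MC26 and 52.5, 48.5 and 69.5 CPM in M1B26. CT was highest in every library, and TNFAIP2 fell in MC26 (-1.81 ± 0.17 with adjusted p = 1.95e-05) and M1B26 (-1.07 ± 0.17 with adjusted p = 3.79e-04) and was higher in M1B26 than in MC26 (0.73 ± 0.17 with adjusted p = 0.00599). The summed level of CD14 and CD68 was higher in the derived lines as well, and its part in these values was not tested.

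**Figure D4:**
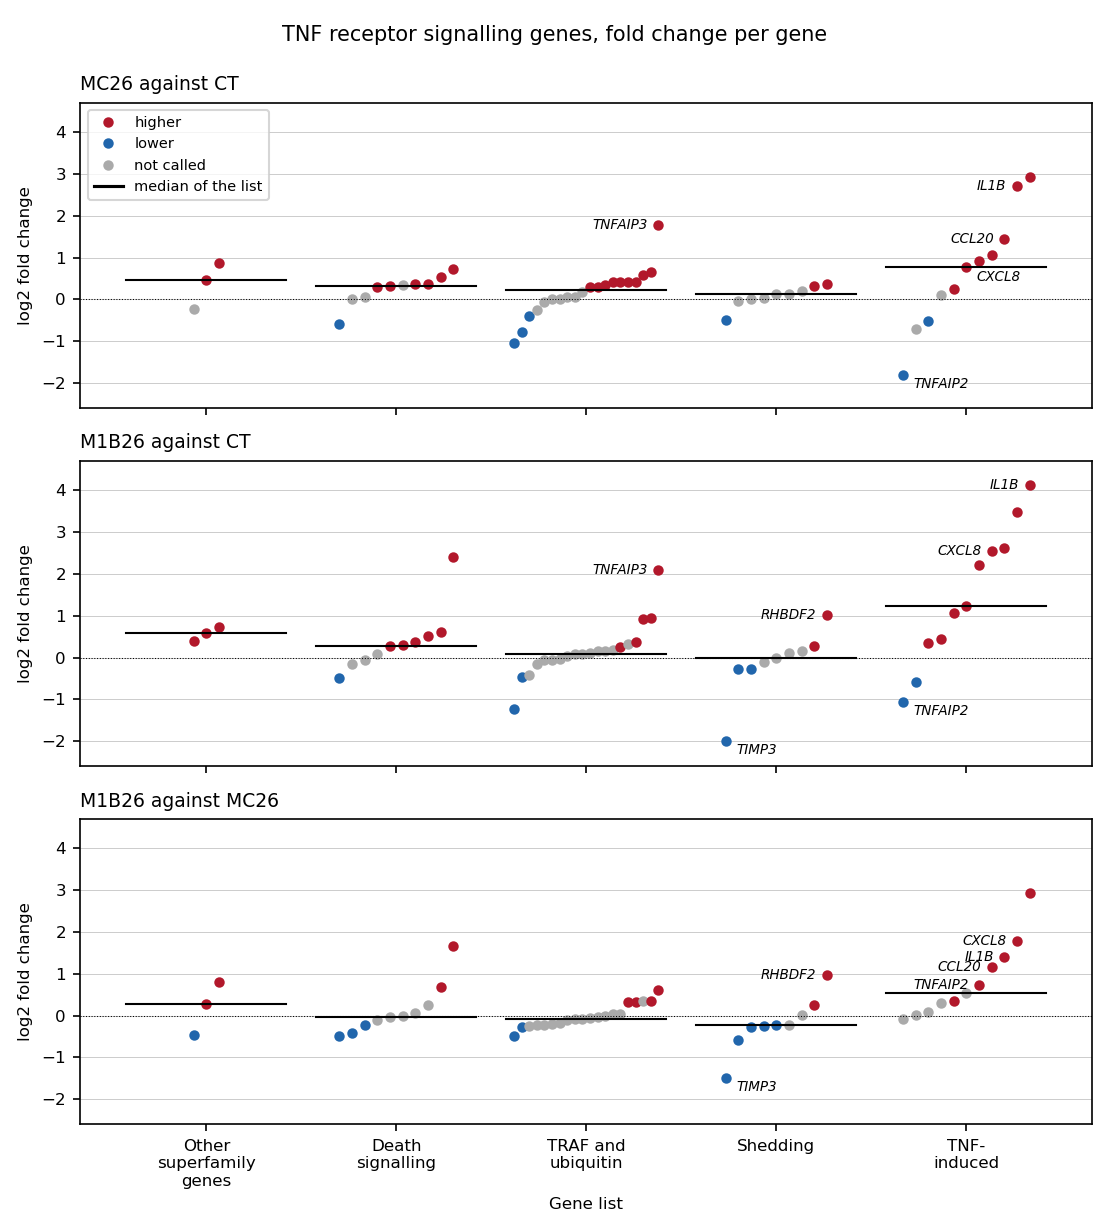
Log2 fold change of the 53 tested genes of TNF receptor signalling in the 3 comparisons, 1 point a gene within its list (superfamily genes under other symbols, death signalling, TRAF and ubiquitin, shedding, TNF-induced genes), coloured as called higher, called lower or not called, with a black line at the median of each list. The TNF-induced genes reach 4.12 for IL1B in M1B26 against CT, and TNFAIP2 at -1.81 is the lowest point in MC26 against CT.

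In the TRAF and ubiquitin list, 10 of 20 genes were higher and 3 lower in MC26 against CT, 5 higher and 2 lower in M1B26 against CT, and 4 higher and 2 lower in M1B26 against MC26. The calls made up 65.0%, 35.0% and 30.0% of the list, beside 38.7%, 48.9% and 39.5% of all genes, so that only the first exceeded its background. TNFAIP3, the A20 ubiquitin-editing enzyme that dampens NF-kB and is itself induced by it, was measured at 11.6, 11.05 and 11.01 CPM in CT, 34.1, 43.0 and 38.5 CPM in MC26 and 53.0, 42.4 and 48.2 CPM in M1B26. CT was lowest in every library and the derived lines overlapped. It rose in MC26 (1.78 ± 0.11 with adjusted p = 1.00e-06) and M1B26 (2.09 ± 0.11 with adjusted p = 2.07e-07) against CT. Between the derived lines it gave 0.32 ± 0.10 with adjusted p = 0.0272, lost without replicates 1 or 3 of MC26 (0.24 and 0.32, adjusted p = 0.0990 and 0.0522) or replicates 1 or 3 of M1B26 (0.24 and 0.31, adjusted p = 0.109 and 0.0660). The adaptor TRAF2 differed by 0.31 ± 0.09 with adjusted p = 0.0207 in MC26 and 0.25 ± 0.09 with adjusted p = 0.0450 in M1B26 against CT. The first call was lost without CT replicate 1 (0.32, adjusted p = 0.0617) or MC26 replicate 1 (0.27, adjusted p = 0.0743), and the second without CT replicates 1 or 2, MC26 replicate 2 or any of the 3 M1B26 libraries (0.16 to 0.28, adjusted p = 0.0632 to 0.134). BIRC3, the inhibitor of apoptosis that TRAF2 recruits, fell in MC26 against CT (-0.77 ± 0.23 with adjusted p = 0.0230), which was lost without CT replicate 2 (-0.66, adjusted p = 0.0738) or MC26 replicate 1 (-0.55, adjusted p = 0.0743). In M1B26 against CT it gave -0.43 ± 0.23 with adjusted p = 0.149, and without M1B26 replicate 3 it fell (-0.72, adjusted p = 0.0172).

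In the death signalling list, 6 of 10 genes were higher and 1 lower in each derived line against CT, and 2 were higher and 3 lower in M1B26 against MC26. The shares of all genes called were 38.7% (18.8% higher), 48.9% (25.2% higher) and 39.5% (21.2% higher) in the 3 comparisons. FADD, the adaptor of death receptors, was higher in MC26 (0.38 ± 0.09 with adjusted p = 0.00521) and M1B26 (0.27 ± 0.09 with adjusted p = 0.0237). The second call was lost without CT replicates 1 or 2 or M1B26 replicates 1 or 2 (0.18 to 0.28, adjusted p = 0.0507 to 0.0822). The initiator CASP8 rose in both lines (0.32 ± 0.07 with adjusted p = 0.00602 and 0.30 ± 0.07 with adjusted p = 0.00647). CFLAR, the inhibitor of CASP8 at the death receptor, had 49.5, 53.7 and 48.2 CPM in CT, 53.4, 50.2 and 48.4 CPM in MC26 and 36.1, 33.7 and 38.6 CPM in M1B26. M1B26 was lowest in every library, and CFLAR fell in M1B26 against CT (-0.48 ± 0.07 with adjusted p = 3.69e-04) and MC26 (-0.49 ± 0.07 with adjusted p = 5.79e-04) but not in MC26 against CT (0.01 ± 0.07 with adjusted p = 0.946). RIPK3, which drives necroptosis, had no count in any library.

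The superfamily genes under other symbols gave 2 higher and none lower of 3 tested in MC26 against CT, beside 38.7% of all genes called. In M1B26 against CT they gave 3 higher, beside 48.9%. In M1B26 against MC26 they gave 2 higher and 1 lower, beside 39.5%. FAS, the superfamily death receptor whose symbol lies outside the rule, was measured at 36.1, 40.8 and 32.9 CPM in CT, 50.3, 49.6 and 51.3 CPM in MC26 and 64.3, 58.8 and 59.1 CPM in M1B26. The 3 lines did not overlap. FAS rose in MC26 (0.47 ± 0.08 with adjusted p = 0.00116) and M1B26 (0.74 ± 0.08 with adjusted p = 3.65e-05) against CT, and the call between the derived lines (0.27 ± 0.08 with adjusted p = 0.0217) was lost without MC26 replicate 1 (0.27, adjusted p = 0.0510), MC26 replicate 2 (0.26, adjusted p = 0.0713) or M1B26 replicate 1 (0.23, adjusted p = 0.0780). Its ligand FASLG had at most 3 counts in a library.

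Of the 9 genes for shedding and processing, 2 were higher and 1 lower in MC26 against CT, 2 higher and 3 lower in M1B26 against CT, and 2 higher and 5 lower in M1B26 against MC26. These are 33.3%, 55.6% and 77.8% of the list, beside 38.7%, 48.9% and 39.5% of all genes. TIMP3, the inhibitor of the sheddase ADAM17, was measured at 187, 187 and 190.1 CPM in CT, 126, 141 and 132 CPM in MC26 and 47.0, 53.8 and 41.1 CPM in M1B26. The lines did not overlap, and TIMP3 fell in MC26 against CT (-0.50 ± 0.09 with adjusted p = 0.00138), in M1B26 against CT (-1.99 ± 0.09 with adjusted p = 1.23e-07) and in M1B26 against MC26 (-1.49 ± 0.09 with adjusted p = 1.78e-06). RHBDF2, which carries ADAM17 to the cell surface, had 29.1, 22.8 and 29.2 CPM in CT, 26.6, 25.6 and 31.2 CPM in MC26 and 64.6, 53.4 and 46.4 CPM in M1B26. M1B26 was highest in every library, and RHBDF2 rose in M1B26 against CT (1.01 ± 0.13 with adjusted p = 1.25e-04) and MC26 (0.98 ± 0.13 with adjusted p = 2.94e-04) and gave 0.03 ± 0.13 with adjusted p = 0.877 in MC26 against CT. RHBDF2 also lies on chromosome 17, whose median was 0.48 in both M1B26 comparisons, and the part of that shift in its values was not tested. ADAM17, which releases TNF and several receptors from the membrane, was higher in M1B26 (0.26 ± 0.08 with adjusted p = 0.0144 against CT and 0.25 ± 0.08 with adjusted p = 0.0234 against MC26). The first call was lost without CT replicate 3 (0.23, adjusted p = 0.0542) or M1B26 replicate 3 (0.20, adjusted p = 0.0592), and the second without MC26 replicate 1 (0.20, adjusted p = 0.0867) or M1B26 replicate 3 (0.19, adjusted p = 0.0948).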

How the data were processed

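Per the labels and the study's methods, poly-A libraries of 9 cultures were sequenced and the authors aligned reads with STAR 2.7.3a to GRCh38 with GENCODE release 33. Salmon 1.1.0 is also named in the submitters' processing notes, and the counter and its strand setting are not given in the sources used here. The deposited table holds whole-number counts per gene as the authors made them, with no normalization. Totals of 21425118 to 80076597 counts set the precision of each value, and the floors of 3 counts cover counting error only, whereas the 95% intervals come from the fit and include the spread between cultures.

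Members and lists were chosen with earlier results of these data known. Genes were filtered with filterByExpr (minimum count 10), leaving 15717, and all 9 libraries were fitted together with TMM factors in edgeR 4.0.16 (R 4.3.3, limma 3.58.1). Groups were compared with the quasi-likelihood test, and p-values were adjusted by Benjamini and Hochberg with a threshold of 0.05. SE is the absolute log2 fold change divided by the square root of F. Biological variation (BCV) came to 10.4%. For levels per kb, CPM values were divided by union exon length of GENCODE release 44. Tables were made with Python 3.11.15 and pandas 2.3.3.

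Described with every library were 12 members of long-known role and each called member that changed by at least 1 on the log2 scale in either direction, with a mean of at least 1 CPM in a line. Of the lists, genes called with an absolute change of at least 1 and a mean of at least 5 CPM were named, together with FAS, FADD, CASP8, CFLAR, TRAF2, BIRC3, TNFAIP3 and ADAM17. STMN3 and the overlapping genes were chosen after their values were seen. Alternatives were relative log expression factors, total counts, no filter, DESeq2 1.42.0, the replicate block, fits of only the 6 libraries compared and leaving out each library. The amounts of BMP2 and IL6 are not printed because the labels and the methods differ. One item of a marker list is not reported here.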

Additional observations from a re-analysis of the deposited data

Results flagged for a closer look

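Both derived lines were compared with the same CT libraries. For 11 of the 16 tested members chosen for description, M1B26 differed from MC26 in the test between them (edgeR, adjusted p under 0.05). Of all genes, 39.5% were called in this comparison. Of the chosen members, 6 were taken because they were called with a change of at least 1 in some comparison, this one included. The count of 11 is therefore in part fixed by the choice. The log2 difference was positive, with M1B26 above MC26, for NGFR (2.88), TNFSF15 (1.64), CD70 (1.45), TNFSF10 (1.24), TNFSF12 (1.09) and TNFRSF6B (0.66). It was negative for CD40 (-4.10), TNFRSF10C (-0.95), TNFRSF21 (-0.83), TNFRSF12A (-0.48) and TNFRSF25 (-0.34). Leaving out single libraries ended the calls of TNFRSF6B, TNFRSF12A and TNFRSF25, and without MC26 replicate 1 the last 2 became -0.26 and -0.22.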

How the results depend on the processing

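The log2 changes of 32 named genes in the 3 comparisons gave 96 values, of which 69 kept their direction and their side of the threshold under all 15 alternatives. In 8 values the sign changed under at least 1 alternative, and none of these was called under any fit. With total counts the sign turned for TNFRSF10B in MC26 (-0.068) and M1B26 (-0.030) against CT, for ADAM17 (-0.063), CFLAR (-0.071) and RHBDF2 (-0.043) in MC26 against CT and for RELB in M1B26 against MC26 (-0.010). RELB also turned with relative log expression factors (-0.00024), DESeq2 (-0.00025) and only the 6 libraries compared (-0.00010). Leaving out 1 library gave ranges of -0.0034 to 0.030 for TNFRSF10B, -0.048 to 0.369 for TNFSF10, -0.014 to 0.065 for ADAM17, -0.027 to 0.057 for CFLAR and -0.064 to 0.096 for RHBDF2 in MC26 against CT. It gave -0.292 to 0.135 for TNFRSF11B and -0.042 to 0.040 for RELB in M1B26 against MC26. The number of superfamily members lower in M1B26 than in MC26 ranged from 3 to 6 over the fits that left out 1 library (5 with all libraries) and was 3 without MC26 replicate 1, MC26 replicate 2, M1B26 replicate 2 or M1B26 replicate 3. The number of signalling genes lower in that comparison ranged from 5 to 14 (11 with all libraries), with 6 without MC26 replicate 1 or MC26 replicate 2 and 5 without M1B26 replicate 2. Other counts of calls stayed within 1.5 times their value. With total counts the calls of ADAM17 (0.17), CASP8 (0.20), FADD (0.17) and TRAF2 (0.15) in M1B26 against CT were lost, and the median of all genes moved to -0.08 in MC26 and -0.09 in M1B26 against CT. NGFR passed the test in M1B26 against CT with total counts (adjusted p = 0.0343), without a filter (-0.90) and with only the 6 libraries compared (-0.92). LTBR passed it in M1B26 against MC26 with relative log expression factors (-0.22), total counts (-0.23), DESeq2 (-0.22) and only the 6 libraries compared (-0.22). With only those libraries, TNFRSF12A in M1B26 against MC26 (-0.48) and TRAF2 in M1B26 against CT (0.24) no longer passed. Without a filter, BIRC3 passed in M1B26 against CT (-0.41) and against MC26 (0.35), and ICAM1 in M1B26 against MC26 (0.31). The cause was not tested.

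The labels give the groups the same replicate numbers. Deviations of same-numbered libraries from the means of their lines had correlations of -0.11 to 0.14. Between MC26 and M1B26 these were 0.081, 0.042 and 0.136, beside -0.114 to 0.041 for libraries of different numbers. Whether same-numbered libraries share more than a number was not tested. With the replicate block, 94 of 96 values stayed on their side of the threshold, TRAF2 in M1B26 against CT gave 0.25 with adjusted p = 0.0590, and LTBR in M1B26 against MC26 gave -0.21 with adjusted p = 0.0465. The members called lower in M1B26 against MC26 then numbered 6. Depth limits the members with few counts: CT replicate 2, the shallowest library, has a floor of 0.131 CPM.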
